A study of Mus musculus with 5 samples.

Results

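Helper T cells are steered by a small set of cytokine receptors. The 9 genes described here are Ifng, which encodes interferon gamma (IFN-gamma), and 8 receptor chains for helper cytokines, namely Ifngr1 and Ifngr2 (IFN-gamma), Il12rb1 and Il12rb2 (IL-12), Il4ra (IL-4 and IL-13), Il10ra and Il10rb (IL-10), and Il17ra (IL-17). They were chosen by symbol, and all 9 were found among the 24417 genes of the table. All 9 also passed the filter on low counts, which kept 14164 genes. The cells came from the colon lamina propria of mice that carry a Foxp3DTR-GFP allele and a loxp-Thy1.1-STOP-loxp-GFP allele of Foxp3, and both groups share this genotype. Thy1.1+ cells made up the 3 reporter-null libraries, and the description of replicate 1 joins the numbers 1 and 4, so that it may hold more than 1 source. Thy1.1+ cells use the allele where the reporter and a STOP cassette between loxP sites stand in the way of Foxp3. The Treg group held 2 libraries of Foxp3-DTR-GFP+ regulatory T cells, which use the allele that makes Foxp3. The comparison asks whether colonic cells that switched on the reporter-null allele carry other helper cytokine receptors than Treg cells with functional Foxp3.

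IFN-gamma binds a receptor of Ifngr1, the ligand-binding chain, and Ifngr2, the signalling chain, and acts through the kinases Jak1 and Jak2. IL-12 drives the Th1 programme and the Ifng gene through Il12rb1, Il12rb2, Jak2, Tyk2 and Stat4, and Il12rb1 also pairs with Il23r to form the receptor for IL-23, a Th17 cytokine. IL-4 acts through Il4ra and Stat6, and IL-10 through Il10ra, Il10rb and Stat3. Il17ra is the shared chain of the IL-17 receptors. IL-10 and its receptor are needed to keep the colon free of inflammation, and colonic Treg cells both make IL-10 and respond to it.

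The libraries held 17670420 to 22395169 counts. Levels are given as CPM, the counts scaled to a common library size with TMM factors. Log2 fold changes are positive where reporter-null cells were higher, and SE is the standard error. Adjusted p-values are those of edgeR (quasi-likelihood, Benjamini-Hochberg) over 14164 genes, and genes under 0.05 are called. The labels do not say that libraries of a group came from separate animals, so the spread that p-values rest on may be technical. Foxp3 was at 75.7 to 81.3 CPM in reporter-null and 764 to 770.0 CPM in Treg libraries, and all 8 T cell markers listed for this work were detected, with sums of 6573 to 7110 CPM in reporter-null and 5811 to 5830 CPM in Treg libraries. Of these 8 markers, 1 was called higher in reporter-null cells and none lower, beside 8.79% of all tested genes called in both directions. This was Cd4, at 1391 ± 147 CPM in reporter-null and 701 ± 26.4 CPM in Treg cells (log2 fold change 0.99, SE 0.141, adjusted p = 0.00796). Reporter-null replicate 2 stood apart in its epithelial transcripts. The sum of 8 epithelial markers was 1050 CPM there, against 19.1 and 24.3 CPM in reporter-null replicates 1 and 3, and 224 and 41.8 CPM in Treg replicates 1 and 2. The sum of 8 myeloid markers was 93.2 CPM in the same library, against 20.4 and 20.2 CPM in the other reporter-null libraries, and 42.0 and 14.7 CPM in the Treg libraries. Results that lean on reporter-null replicate 2 are therefore given with and without it.

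Ifng and the IL-12 receptor chain Il12rb2 were higher in reporter-null cells, and Ifngr2 and Il10rb were lower. Of the 9 genes, 2 were called higher and 2 lower, beside 4.07% and 4.72% of all tested genes (8.79% in both directions). The groups did not overlap in 7 of the 9, beside 40.8% of all tested genes, and 6 of the 9 had an unadjusted p under 0.05, beside 22.6%. The median log2 fold change of the 8 receptor chains was -0.43, and that of all tested genes was 0.02. In such bulk libraries, fewer cells of a type and less RNA per cell cannot be told apart. Il10ra and Il17ra were the genes whose groups overlapped, and Ifngr1, Il4ra and Il12rb1 did not overlap but were not called.

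Among markers of other cells, those of gamma-delta T cells had the largest ratio of summed levels between the groups. Of the 5 gamma-delta T cell markers listed, the T cell receptor genes Tcrg-C1 and Trdc had no entry among the counted genes. The sum of the other 3 was 422 to 625 CPM in reporter-null and 10.8 to 11.0 CPM in Treg libraries. Most of it came from 5830411N06Rik, at 381 to 585 CPM in reporter-null and 6.89 to 7.17 CPM in Treg libraries. Blk was at 36.8 to 54.3 CPM in reporter-null and 2.01 to 3.75 CPM in Treg libraries, and Sox13, at 0.0542 to 3.94 CPM in reporter-null and 0.139 to 1.79 CPM in Treg libraries, was not called (adjusted p = 0.912). Markers of CD8 T cells (3.55 to 7.39 CPM in reporter-null and 11.2 to 11.9 CPM in Treg libraries) and of NK and innate lymphoid cells (4.93 to 6.91 CPM in reporter-null and 8.25 to 12.0 CPM in Treg libraries, with Klra8 at 0 in all) were low. Summed B and plasma cell markers were at 375 to 839 CPM in reporter-null and 415 to 1375 CPM in Treg libraries. Most of this came from Jchain, highest in Treg replicate 1 (1333 CPM) and reporter-null replicate 2 (807 CPM). Cd79b was called lower (log2 fold change -1.47, adjusted p = 0.0046). Mast cell and granulocyte markers summed to 15.3 to 38.4 CPM in reporter-null and 8.25 to 9.39 CPM in Treg libraries. Most of this came from Kit, which was called higher (1.88, adjusted p = 0.0439). Cpa3, the other one tested, had lower values (-0.88, adjusted p = 0.516), and every marker besides Kit was at most at 1.14 CPM. Stroma and endothelium markers summed to 95.2 to 184 CPM in reporter-null and 112 to 123 CPM in Treg libraries. Pecam1 gave 86.2 to 95.4 CPM of this in reporter-null and 81.5 to 101 CPM in Treg libraries. The part of these other cells in the values of the 9 genes was not tested.

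**Figure D1:**
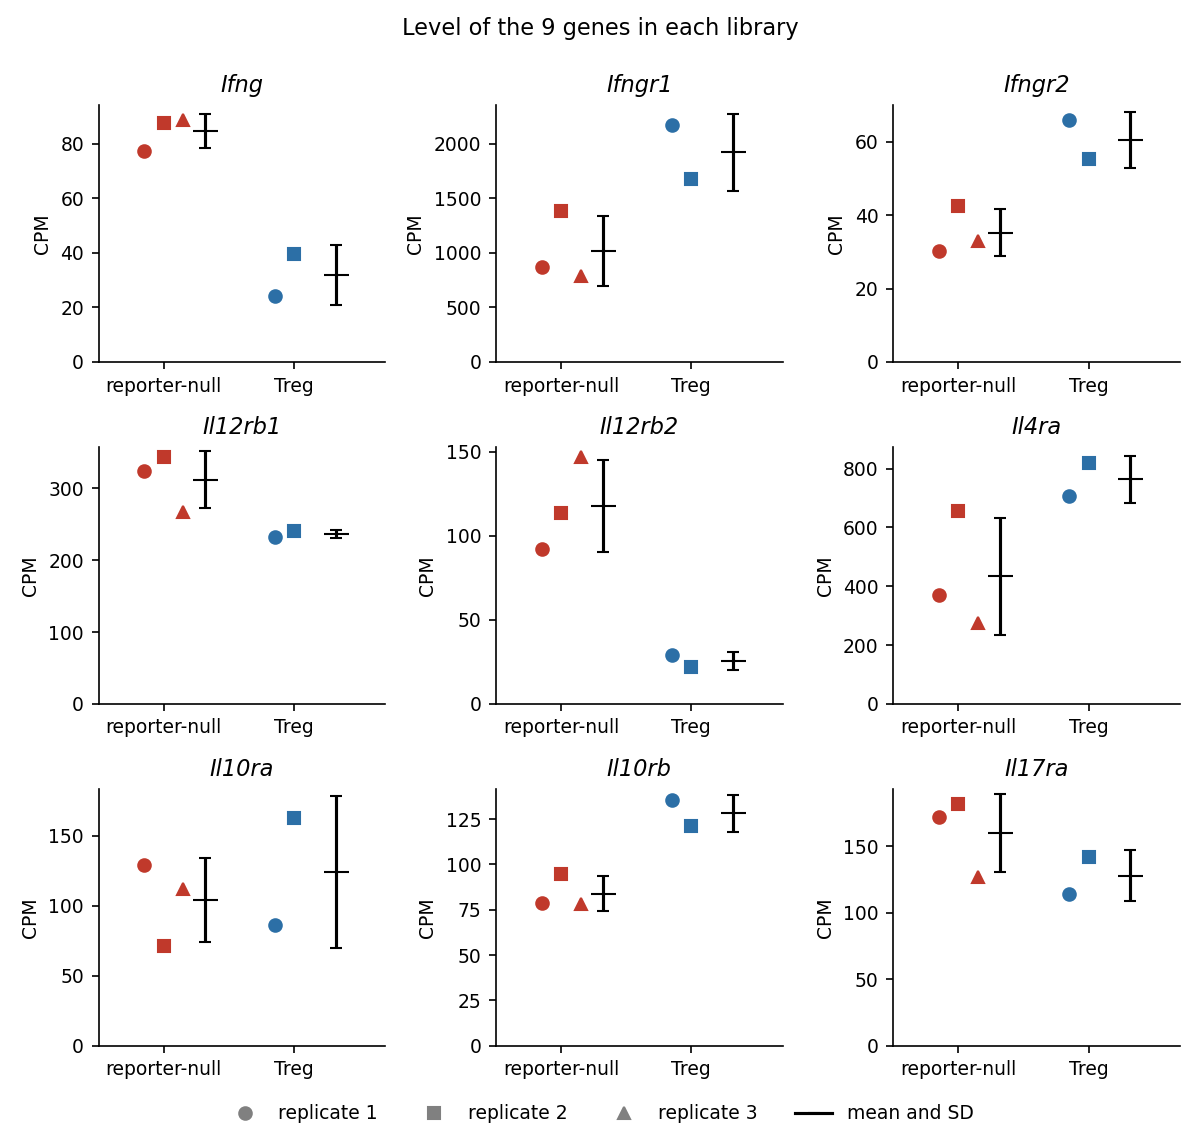
Level of each of the 9 genes in CPM (vertical axes start at 0) in the 3 reporter-null and 2 Treg libraries, with the mean and SD of each group beside the points. Ifng and Il12rb2 lie higher in every reporter-null library, Ifngr2 and Il10rb lie lower, and in Ifngr1 and Il4ra reporter-null replicate 2 is the reporter-null library nearest to the Treg libraries.

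Ifng, the cytokine of Th1 cells that activates macrophages and raises antigen presentation, stood at 77.4, 87.7 and 88.5 CPM in reporter-null replicates 1, 2 and 3, against 24.3 and 39.7 CPM in Treg replicates 1 and 2. All 3 reporter-null libraries were above both Treg libraries, and the reporter-null libraries lay close together while the Treg libraries were further apart. The means were 84.6 ± 6.19 CPM in reporter-null cells and 32.0 ± 10.9 CPM in Treg cells (SD, n = 3 and 2). Its log2 fold change was 1.40 (SE 0.219, adjusted p = 0.0116), a 2.64-fold difference. The call held with each library left out in turn, with log2 fold changes from 1.09 to 1.81 and adjusted p from 0.00242 to 0.0458. It was made in 12 of 13 alternatives (1.36e-07 to 0.0917) and lost with a replicate block by title number (0.0917).

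Il12rb2 is the chain that makes a cell responsive to IL-12, and its level is a known mark of Th1 differentiation. It stood at 92.3, 113.5 and 146.6 CPM in reporter-null replicates 1, 2 and 3, against 29.2 and 21.9 CPM in Treg replicates 1 and 2. The lowest reporter-null library was above the highest Treg library, and reporter-null replicate 3 was the highest of all. The means were 117 ± 27.4 CPM in reporter-null cells and 25.5 ± 5.19 CPM in Treg cells, which is a log2 difference of 2.20 (SE 0.243, adjusted p = 0.00374), or 4.60-fold. Without Treg replicate 2, which leaves 1 Treg library, the log2 fold change was 2.01 and the adjusted p 0.0509, and the 13 alternatives spanned 5.83e-17 to 0.0785. RefSeq places the gene Serbp1 partly over Il12rb2, and reads of overlapping genes cannot be separated here. Serbp1 was at 248 ± 19.7 CPM in reporter-null and 255 ± 8.55 CPM in Treg cells (log2 fold change -0.04, adjusted p = 0.889).

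Il12rb1, the chain shared by the IL-12 and IL-23 receptors, was at 325, 344 and 268 CPM in reporter-null replicates 1, 2 and 3, against 233 and 241 CPM in Treg replicates 1 and 2. The groups did not overlap, but reporter-null replicate 3 lay near the Treg libraries. The log2 difference of 0.40 (SE 0.139, adjusted p = 0.144) was not called, although it passed with DESeq2 (0.0465) and without reporter-null replicate 3 (0.0424), and the 13 alternatives spanned 0.0424 to 0.494. The ratio of the IL-12 receptor chains did not overlap between the groups. The log2 ratio of Il12rb1 to Il12rb2 was 1.81, 1.60 and 0.87 in reporter-null replicates 1, 2 and 3, against 2.99 and 3.46 in Treg replicates 1 and 2. These correspond to 2.69 CPM of Il12rb1 for each CPM of Il12rb2 in reporter-null cells and 9.34 in Treg cells as geometric means, a difference in log2 ratio of -1.80. An exact two-sided permutation test gave p = 0.2 (0.4 with Benjamini-Hochberg adjustment over 3 ratios), and 0.2 is the smallest p that 3 against 2 libraries allow.

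Il23r, which pairs with Il12rb1, was higher as well. It is the nearest protein-coding gene without overlap on one side of Il12rb2 in RefSeq (GRCm38.p6). It was at 115, 107 and 200 CPM in reporter-null replicates 1, 2 and 3, against 31.4 and 42.0 CPM in Treg replicates 1 and 2. All reporter-null libraries were above both Treg libraries (log2 fold change 1.94, SE 0.341, adjusted p = 0.0288). The call was lost without Treg replicate 1 (0.204), Treg replicate 2 (0.127) or reporter-null replicate 1 (0.0641), and the 13 alternatives spanned 7.73e-09 to 0.204. Serbp1, which overlaps Il12rb2, was not called, while the neighbours without overlap differed in opposite directions. Gadd45a, a stress-response gene, is the neighbour on the other side. It was lower, at 26.9 ± 2.39 CPM in reporter-null against 53.1 ± 3.87 CPM in Treg cells (-0.98, SE 0.135, adjusted p = 0.00682). It was not called when Treg replicate 1 (0.0557) or Treg replicate 2 (0.0763) was left out (2.25e-08 to 0.1095 over the alternatives).

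The sequence before the start of Ifng, Il12rb2 and Ifngr2 is shown because these called genes have an entry among the RefSeq promoters (GRCm38.p6), where 5 of the 9 genes matched. Each run is the 250 bases before the annotated start, 5′ to 3′ on the strand of the gene. Capitals mark a match to TTCNNNGAA, the core bound by STAT factors such as Stat4, or to the same letters with 4 bases between TTC and GAA, the spacing that Stat6 prefers. Both motifs read the same on the 2 strands, and a match is a description of the letters and not evidence of binding.
Ifng, plus strand, chr10:118440796-118441045: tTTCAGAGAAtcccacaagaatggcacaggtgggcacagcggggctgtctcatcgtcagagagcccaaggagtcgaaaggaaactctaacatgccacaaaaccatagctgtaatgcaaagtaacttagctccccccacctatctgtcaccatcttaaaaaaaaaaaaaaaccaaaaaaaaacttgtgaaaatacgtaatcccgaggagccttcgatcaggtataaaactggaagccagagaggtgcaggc
Il12rb2, minus strand, chr6:67376189-67376438: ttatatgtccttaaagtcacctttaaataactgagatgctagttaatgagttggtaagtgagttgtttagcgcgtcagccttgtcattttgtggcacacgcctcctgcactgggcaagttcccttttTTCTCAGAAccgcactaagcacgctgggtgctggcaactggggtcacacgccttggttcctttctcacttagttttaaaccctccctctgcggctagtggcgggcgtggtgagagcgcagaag
Ifngr2, plus strand, chr16:91546809-91547058: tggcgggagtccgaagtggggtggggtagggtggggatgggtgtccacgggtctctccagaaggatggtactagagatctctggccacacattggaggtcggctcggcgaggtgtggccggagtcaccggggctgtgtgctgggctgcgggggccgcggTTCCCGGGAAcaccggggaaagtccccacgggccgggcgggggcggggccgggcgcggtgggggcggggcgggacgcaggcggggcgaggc
The Ifng window held TTCAGAGAA at 249 to 241 bases before the start, and the Il12rb2 window held TTCTCAGAA at 123 to 115 bases before it. Of all 32851 RefSeq promoter windows of this length, 7.02% held TTCNNNGAA. The Ifngr2 window held TTCCCGGGAA at 91 to 82 bases before the start, and 5.85% of all windows held TTC and GAA with 4 bases between. In the windows of Ifngr1 and Il4ra neither motif was found, and the forkhead letters GTAAACA, searched on both strands and present in 3.17% of all windows, were in none of the 5 windows.

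Both chains of the IFN-gamma receptor had lower values in reporter-null cells, and the call was made for Ifngr2. Ifngr2, which brings Jak2 to the receptor, was at 30.3, 42.5 and 33.0 CPM in reporter-null replicates 1, 2 and 3, against 65.9 and 55.2 CPM in Treg replicates 1 and 2. The groups did not overlap, and reporter-null replicate 2 was the reporter-null library nearest to Treg. Means were 35.3 ± 6.39 CPM in reporter-null cells and 60.5 ± 7.56 CPM in Treg cells, which is a log2 difference of -0.78 (SE 0.174, adjusted p = 0.0404). The call was made without reporter-null replicate 2 (-0.94, adjusted p = 0.0024) and lost with Treg replicate 1 (0.274) or 2 (0.124) left out, and with reporter-null replicate 1 (0.162) or 3 (0.1003) left out, and the 13 alternatives spanned 0.0024 to 0.274.

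Ifngr1, the chain that binds IFN-gamma, was at 873, 1384 and 788 CPM in reporter-null replicates 1, 2 and 3, against 2174 and 1674 CPM in Treg replicates 1 and 2. The groups did not overlap, but reporter-null replicate 2, the library with the high epithelial sum, lay closer to Treg replicate 2 than to the other reporter-null libraries. Its log2 fold change was -0.92 (SE 0.268, adjusted p = 0.0973). Without reporter-null replicate 2 it was -1.22 with an adjusted p of 0.000583, DESeq2 gave 0.006, and the 13 alternatives spanned 0.000583 to 0.441. The part of the epithelial transcripts in these values was not tested. The log2 ratio of Ifngr1 to Ifngr2 was 4.84, 5.02 and 4.58 in reporter-null replicates 1, 2 and 3, against 5.04 and 4.92 in Treg replicates 1 and 2. These ratios overlapped between the groups, with a difference of -0.17 (exact two-sided permutation test, p = 0.4, adjusted p = 0.4).

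Il10rb, the chain that the IL-10 receptor shares with receptors for IL-22 and type III interferons, was at 78.6, 94.9 and 78.4 CPM in reporter-null replicates 1, 2 and 3, against 136 and 121 CPM in Treg replicates 1 and 2. Every reporter-null library was below both Treg libraries, with replicate 2 again the nearest. Means were 84.0 ± 9.47 CPM in reporter-null cells and 128 ± 10.3 CPM in Treg cells, which is a log2 difference of -0.61 (SE 0.132, adjusted p = 0.0359). The call was made without reporter-null replicate 2 (-0.72, adjusted p = 0.00463) and lost with Treg replicate 1 (0.252) or 2 (0.124) left out, and with reporter-null replicate 1 (0.169) or 3 (0.0735) left out, and the 13 alternatives spanned 0.00115 to 0.252.

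Il10ra, the chain that binds IL-10, was at 129, 71.0 and 112 CPM in reporter-null replicates 1, 2 and 3, against 85.9 and 162 CPM in Treg replicates 1 and 2. The groups overlapped, and the lowest library of each group was the one with the group's highest epithelial sum, reporter-null replicate 2 and Treg replicate 1. Its log2 fold change was -0.26 (SE 0.371, adjusted p = 0.766), and -0.049 without reporter-null replicate 2. It was 0.28 without Treg replicate 2, so that these libraries gave no direction for Il10ra. The log2 ratio of Il10ra to Il10rb was 0.71, -0.42 and 0.52 in reporter-null replicates 1, 2 and 3, against -0.66 and 0.42 in Treg replicates 1 and 2. The mean ratio differed by 0.39 (exact two-sided permutation test, p = 0.4, adjusted p = 0.4), and by -0.15 without Treg replicate 1.

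**Figure D2:**
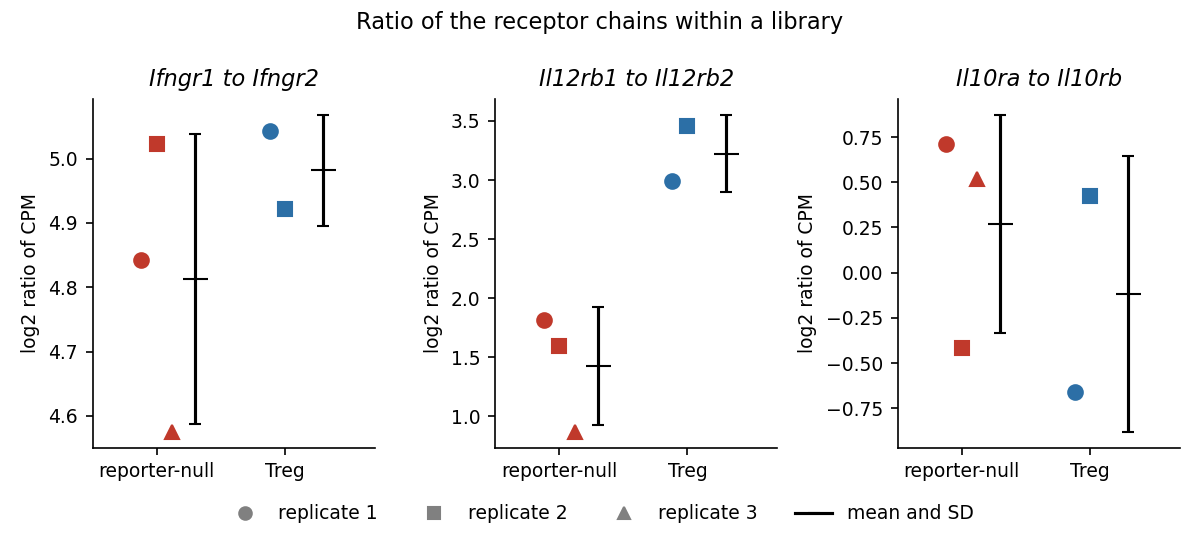
Log2 ratio of the CPM of the chains of a receptor within each library (the axes do not start at 0), with mean and SD, for 3 reporter-null and 2 Treg libraries. The ratio of Il12rb1 to Il12rb2 lies between 0.87 and 1.81 in reporter-null libraries and at 2.99 and 3.46 in Treg libraries, while the other ratios overlap between the groups.

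Il4ra, the signalling chain for IL-4 and IL-13, had the widest spread among the reporter-null libraries after Ifngr1 in CPM. It was at 370, 656 and 275 CPM in reporter-null replicates 1, 2 and 3, against 706 and 820.3 CPM in Treg replicates 1 and 2. The groups did not overlap, but reporter-null replicate 2 lay close to Treg replicate 1. The log2 difference of -0.81 (SE 0.382, adjusted p = 0.303) was not called. Without reporter-null replicate 2 it was -1.25 (adjusted p = 0.000507), the single call among 13 alternatives, whose adjusted p ran from 0.000507 to 0.593.

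Il17ra, the chain common to the receptors for IL-17A, IL-17F, IL-25 and IL-17C, was at 172, 181 and 127 CPM in reporter-null replicates 1, 2 and 3, against 114 and 142 CPM in Treg replicates 1 and 2. Reporter-null replicate 3 lay between the Treg libraries, so the groups overlapped. The log2 difference of 0.32 (SE 0.187, adjusted p = 0.378) was not called in any of 13 alternatives (0.103 to 0.798).

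**Figure D3:**
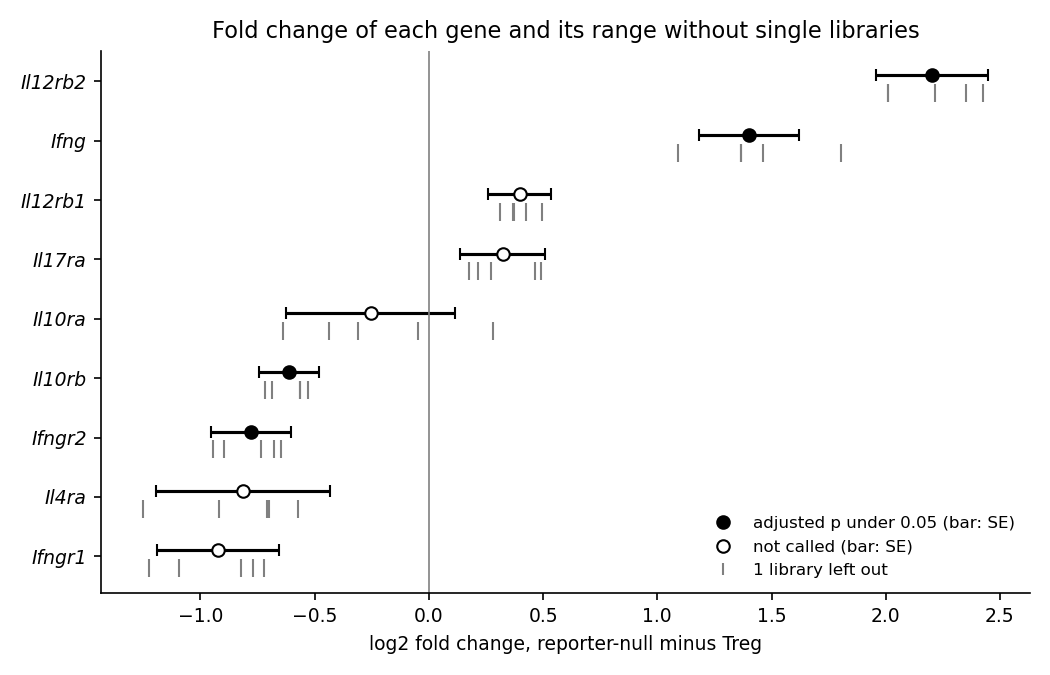
Log2 fold change of each gene, reporter-null minus Treg, with its SE from the edgeR fit of all 5 libraries (filled points have an adjusted p under 0.05), and grey ticks for the values with 1 library left out. Il12rb2 (2.20) and Ifng (1.40) lie to the right of 0 with all their ticks, Il10ra has ticks on both sides, and Il4ra and Ifngr1 have their lowest ticks, -1.25 and -1.22, without reporter-null replicate 2.

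Per length, the order of the levels differed between the groups, most of all for Il12rb2. Levels were divided by the exonic length of each gene in GENCODE M21, which may differ from the annotation used for counting, and are in CPM per kilobase. In reporter-null cells Ifngr1 was the most abundant at 356 (277 to 486 over the libraries), above Il12rb1 at 76.0, Il4ra at 72.3 and Ifng at 65.3 CPM per kilobase, whose ranges overlapped. Il12rb2 at 31.0, Il10ra at 29.7, Il10rb at 22.0 and Il17ra at 18.5 followed, each overlapping with the next in that order, and Ifngr2 was lowest at 9.36 (8.05 to 11.3). In Treg cells Ifngr1 was at 676 (588 to 764), Il4ra at 127 and Il12rb1 at 57.7 CPM per kilobase, with no overlap between these 3. Il10ra at 35.5 overlapped with Il10rb at 33.7 and with Ifng at 24.7, and Ifngr2 at 16.1 overlapped with Il17ra at 14.8 CPM per kilobase. Il12rb2 was the lowest of the 9 in Treg cells at 6.73 (5.76 to 7.70).

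The genes around the receptors are described from lists chosen with earlier results of these data known. Of all tested genes, 4.07% were called higher and 4.72% lower (8.79% in both directions), and the counts of each list stand beside these shares. Among 14 ligands of these receptors, 7 were tested, and 4 of them were higher and none lower, with a median log2 fold change of 4.92 beside 0.02 for all genes. Besides Ifng these were Il17a, Il17f and Il13. Il17a was at 1495, 1229 and 1527 CPM in reporter-null replicates 1, 2 and 3, against 12.4 and 36.3 CPM in Treg replicates 1 and 2 (log2 fold change 5.86, SE 0.592, adjusted p = 0.00762). Il17f, its close relative, was also higher (7.51, SE 0.55, adjusted p = 0.0022). Il13 rested on 5 counts in the Treg group, 4 and 1, against 300, 69 and 519 counts in the reporter-null libraries, and was not called when any library other than reporter-null replicate 2 was left out (0.0549 to 0.232), nor with limma-voom (0.507), with no filter (0.101) or with a replicate block by title number (0.0505). It was called in 6 of 13 alternatives, which spanned 6.76e-10 to 0.507. Il10 was at 469, 232 and 553 CPM in reporter-null replicates 1, 2 and 3, against 916 and 928 CPM in Treg replicates 1 and 2 (-1.14, SE 0.366, adjusted p = 0.146). Il12a and Il12b encode the subunits of IL-12, a cytokine mainly of antigen-presenting cells. Neither gene passed the filter on low counts, which asks for counts in more than 1 library. Il12b had 2, 0 and 0 counts in the reporter-null libraries, against 130 and 0 counts in Treg replicates 1 and 2, and Il12a had 0, 1 and 0 counts, against 0 and 19.

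Of 17 partner and related receptor chains, 16 were tested, with a median log2 fold change of 0.14. Of these, 2 were called higher and 1 lower, beside 8.79% of all tested genes called in both directions. The higher ones were Il23r and Il17re, the chain that pairs with Il17ra in the receptor for IL-17C. Il17re was at 67.8, 57.2 and 37.1 CPM in reporter-null replicates 1, 2 and 3, against 8.96 and 8.83 CPM in Treg replicates 1 and 2 (2.60, SE 0.28, adjusted p = 0.00321). It was not called when Treg replicate 1 (0.0672) or Treg replicate 2 (0.0604) was left out (3.24e-16 to 0.0672 over the alternatives). Il6st, which encodes gp130, the shared chain of the IL-6 and IL-27 receptors, was lower at 42.8, 45.6 and 57.0 CPM in reporter-null libraries, against 207 and 205 CPM in Treg libraries (-2.09, SE 0.146, adjusted p = 0.000706). Il2rg, the common gamma chain that pairs with Il4ra, was at 1130 ± 134 CPM in reporter-null and 1334 ± 80.0 CPM in Treg cells (-0.24, SE 0.146, adjusted p = 0.402). Il13ra1, which pairs with Il4ra in the other IL-4 receptor, was at 0.108, 8.26 and 0.801 CPM in reporter-null replicates 1, 2 and 3, against 8.58 and 3.84 CPM in Treg replicates 1 and 2 (-1.02, adjusted p = 0.796). Its high reporter-null value was in the library with the high epithelial sum, and without that library the log2 fold change was -3.72 (adjusted p = 0.0127, range 0.0127 to 0.97).

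Of 10 kinases, STAT factors and adaptors, 1 was lower and none higher, near the 8.79% of all tested genes called in both directions. Their median was -0.03. Irs2, an adaptor that binds the activated IL-4 receptor, was at 173 ± 57.1 CPM in reporter-null and 400.4 ± 1.85 CPM in Treg cells (-1.21, SE 0.266, adjusted p = 0.0474), a call lost without either Treg library (0.239 and 0.207) or without reporter-null replicate 1 (0.178), and with RLE factors (0.0527), over a span of 0.000118 to 0.239. Stat4, the IL-12 factor, differed by 0.08 (SE 0.131, adjusted p = 0.796) at 400.1 ± 42.6 CPM in reporter-null and 379 ± 23.2 CPM in Treg cells. Stat6 differed by -0.01 (SE 0.139, adjusted p = 0.979) and Stat3 by -0.12 (SE 0.161, adjusted p = 0.734). Among the kinases, Jak2 differed by 0.36 (SE 0.131, adjusted p = 0.163), Tyk2 by 0.34 (SE 0.13, adjusted p = 0.179), Jak1 by -0.21 (SE 0.12, adjusted p = 0.369) and Jak3 by -0.05 (SE 0.219, adjusted p = 0.934). Traf3ip2, which encodes the IL-17 receptor adaptor Act1, differed by -0.05 (SE 0.111, adjusted p = 0.852).

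Genes listed as targets of IFN-gamma were lower where they were called. Which interferon these genes respond to here was not tested. Of 20 listed, 15 were tested, and 3 were lower and none higher, beside 4.72% of all tested genes called lower. Their median log2 fold change was -0.49, beside 0.02 for all genes. These were Irf9, Gbp2 and Irgm1. Gbp2, a guanylate-binding protein of host defence, was at 76.4, 91.4 and 80.9 CPM in reporter-null replicates 1, 2 and 3, against 172 and 150.5 CPM in Treg replicates 1 and 2 (-0.96, SE 0.127, adjusted p = 0.00603). Irf9, a transcription factor of the interferon response, was at 96.4 ± 5.60 CPM in reporter-null and 145 ± 2.84 CPM in Treg cells (-0.59, SE 0.107, adjusted p = 0.0195), and Irgm1, an interferon-inducible GTPase, at 76.9 ± 6.38 CPM in reporter-null and 116 ± 7.47 CPM in Treg cells (-0.59, SE 0.12, adjusted p = 0.0296). Without Treg replicate 1 the adjusted p was 0.0726 for Gbp2, 0.155 for Irf9 and 0.132 for Irgm1. The calls of Irf9 and Irgm1 were also lost without Treg replicate 2 (0.115 and 0.179) and without reporter-null replicate 1 (0.121 and 0.149). Over 13 alternatives the adjusted p ran from 2.11e-09 to 0.125 for Gbp2, from 5.71e-07 to 0.155 for Irf9 and from 0.000117 to 0.179 for Irgm1. Irf1, a transcription factor induced by IFN-gamma, was at 605, 614 and 650.5 CPM in reporter-null replicates 1, 2 and 3, against 782 and 846 CPM in Treg replicates 1 and 2 (-0.39, SE 0.113, adjusted p = 0.0936, not called). Cxcl9 (1.94, adjusted p = 0.236), Nlrc5 (0.26, adjusted p = 0.428) and Cxcl10 (0.11, adjusted p = 0.935) had positive log2 fold changes, and the other tested targets negative ones. In the fit of all libraries the ligand gene Ifng was called higher, and Ifngr2, Irf9, Gbp2 and Irgm1 lower. Of these calls, only that of Ifng held with each library left out. Whether these values are linked was not tested. Gbp3, Gbp6, Gbp7 and Igtp were listed at 0 counts in all 5 libraries. Whether the counting dropped reads shared with similar or overlapping genes is not known, so these zeros do not show that the genes were silent.

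Inhibitors of these signals gave 2 lower and no higher calls among 8 tested, beside 8.79% of all tested genes called in both directions. Their median was -0.13. Socs3, which blocks signalling through gp130, was at 188, 207 and 171 CPM in reporter-null replicates 1, 2 and 3, against 469 and 473 CPM in Treg replicates 1 and 2 (-1.32, SE 0.12, adjusted p = 0.00152). Usp18, an inhibitor of the type I interferon receptor, was at 4.39, 3.50 and 4.23 CPM in reporter-null libraries, against 19.3 and 28.6 CPM in Treg libraries (-2.57, SE 0.245, adjusted p = 0.00183). Both calls held with each library left out. Socs3 was also in the list of STAT3 targets of IL-10, where 1 of 9 tested genes was higher and 1 lower, with a median of -0.40. The higher one was Prdm1, which encodes the regulator Blimp-1, at 285 ± 13.6 CPM in reporter-null and 164 ± 44.5 CPM in Treg cells (0.80, SE 0.178, adjusted p = 0.0393). Its call was lost without Treg replicate 1, where the log2 fold change was 0.55 (0.191), or without replicate 1 (0.135) or 3 (0.0814) of the reporter-null group (0.000273 to 0.196 over the alternatives).

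Genes of IL-12, Stat4 and the Th1 programme were mostly higher where called. Of 13 tested, 7 were higher and 1 lower, beside 8.79% of all tested genes called in both directions. The median was 1.03, and the higher ones include Ifng and Il12rb2. Without these 2, 5 of 11 were higher and 1 lower, with a median of 1.01. Il18rap, a chain of the IL-18 receptor, was at 91.1, 99.6 and 106 CPM in reporter-null replicates 1, 2 and 3, against 39.5 and 35.7 CPM in Treg replicates 1 and 2 (1.40, SE 0.127, adjusted p = 0.00152). Gadd45b, a stress-induced activator of p38 signalling, was at 1615 ± 121 CPM in reporter-null and 667 ± 66.7 CPM in Treg cells (1.27, SE 0.142, adjusted p = 0.00321), with an adjusted p of 0.0572 without Treg replicate 1 (range 2.05e-23 to 0.0938). Cxcr3, a chemokine receptor of Th1 cells and of some Treg cells, was lower at 21.7, 19.1 and 10.2 CPM in reporter-null libraries, against 209 and 215 CPM in Treg libraries (-3.64, SE 0.321, adjusted p = 0.00313). Tbx21, which encodes T-bet, the Th1 regulator that binds the Ifng gene, was at 62.4, 65.0 and 44.0 CPM in reporter-null replicates 1, 2 and 3, against 53.8 and 55.0 CPM in Treg replicates 1 and 2 (0.07, SE 0.183, adjusted p = 0.871). Its groups overlapped, so that Ifng and Il12rb2 were higher in libraries where no difference in Tbx21 was called. Of 8 tested Stat6 and Th2 genes, 1 was higher, Il13, and none lower, with a median of 0.46. Il4 was at 214, 63.0 and 375 CPM in reporter-null libraries, against 6.62 and 22.3 CPM in Treg libraries. Its groups did not overlap, but it was not called (3.90, SE 1.18, adjusted p = 0.176). Il5 (4.37, adjusted p = 0.232), Gata3 and Pparg had positive log2 fold changes without a call, and Nfil3, Gfi1 and Il4ra negative ones.

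**Figure D4:**
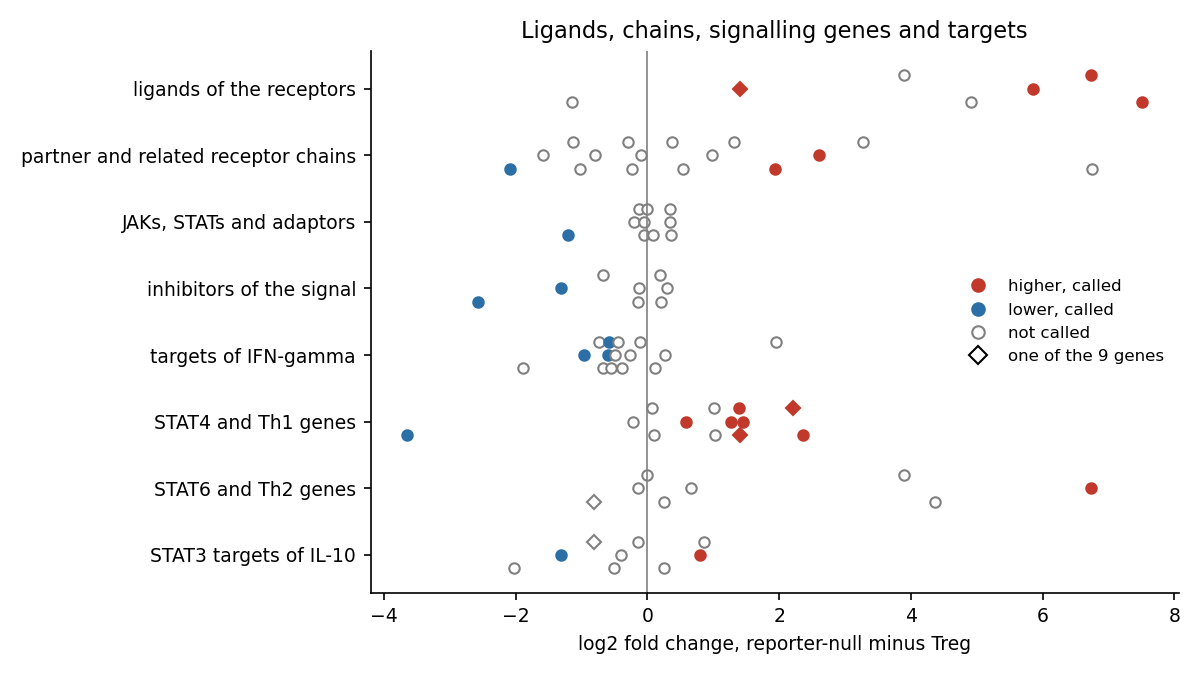
Log2 fold change, reporter-null minus Treg, of each tested gene in 8 lists, with filled red and blue points for genes with an adjusted p under 0.05 and diamonds for the 9 genes themselves. The called targets of IFN-gamma lie left of 0 (3 of 15), and 7 of 13 genes of the Stat4 and Th1 list lie right of 0 as called, with Cxcr3 at -3.64 as the exception.

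Ifngr2 and Il10rb lie in a cluster of cytokine receptor genes on mouse chromosome 16, in the order Ifnar2, Il10rb, Ifnar1, Ifngr2 in RefSeq. All 4 had lower values in reporter-null cells with no overlap between the groups, beside 40.8% of all tested genes without overlap in either direction. The called ones were Ifngr2 and Il10rb, which are among the 9 genes and define the cluster, beside 4.72% of all tested genes called lower. Ifnar1, a chain of the type I interferon receptor, was at 139, 213 and 125 CPM in reporter-null replicates 1, 2 and 3, against 308 and 245 CPM in Treg replicates 1 and 2 (-0.80, SE 0.248, adjusted p = 0.118). Without reporter-null replicate 2 it was -1.08 (adjusted p = 0.000838, range 0.000838 to 0.481). Ifnar2 was at 80.8 ± 3.07 CPM in reporter-null and 99.4 ± 5.23 CPM in Treg cells (-0.30, SE 0.107, adjusted p = 0.157). Of the 17 nearest protein-coding neighbours without overlap of the 9 genes, 15 were tested, with a median of -0.30. Called were 2 higher and 2 lower, beside 4.07% and 4.72% of all tested genes. Besides Il23r and Gadd45a these were Mast3 beside Il12rb1 (0.94, SE 0.163, adjusted p = 0.0166) and Nsmce1 beside Il4ra (-0.92, SE 0.113, adjusted p = 0.00461). Mast3 was not called when Treg replicate 1 (0.167), Treg replicate 2 (0.105) or reporter-null replicate 1 (0.0804) was left out (1.74e-06 to 0.167 over the alternatives), nor was Nsmce1 without Treg replicate 1 (0.0505, range 1.73e-11 to 0.0882).

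The genes most like Ifng over the 5 libraries were Nedd4, Tube1 and Aebp1, by the root mean square difference of centred log2 CPM among 9099 candidates. The differences were 0.0978, 0.111 and 0.117, where the median candidate was at 0.755. Nedd4, a ubiquitin ligase, was at 34.4, 43.2 and 38.7 CPM in reporter-null replicates 1, 2 and 3, against 12.3 and 17.1 CPM in Treg replicates 1 and 2. For Il12rb2, the receptor chain with the smallest p, they were Hs3st1, Prelid2 and Ahrr, with differences of 0.225, 0.226 and 0.237 beside a median of 1.11. Ahrr, the repressor of the aryl hydrocarbon receptor, was at 40.9, 33.8 and 49.3 CPM in reporter-null replicates 1, 2 and 3, against 9.94 and 9.85 CPM in Treg replicates 1 and 2. In both sets all reporter-null libraries were above all Treg libraries. This goes with the way they were picked, by likeness to genes whose groups do not overlap. Aebp1 was not called (adjusted p = 0.0594).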

How the data were processed

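Sequenced were 3 reporter-null and 2 Treg libraries. Per the labels' protocols, cDNA came from SMART-Seq v4 amplification and was read from both ends. The values are raw counts per gene symbol as the authors deposited them, with no normalisation. The submitters' processing notes name DESeq. Aligner, build, annotation and strand setting were not stated in these sources. The 4 rows without a symbol held at most 0.00492% of the counts of a library and were left out. No pair of replicates agreed within sampling noise (chi-square of 21.3 to 91.2 per degree of freedom).

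In R 4.3.3, filterByExpr (minimum count 10, minimum total 15) kept 14164 genes. TMM factors and the robust quasi-likelihood F test of edgeR 4.0.16 gave log2 fold changes, and SE is their size over the square root of F. Chain ratios used log2 CPM with a prior count of 2 and exact permutation tests (scipy 1.17.1). Named were the 9 genes, fixed partners, up to 3 called genes per list, neighbours, most similar profiles and some other listed genes. One gene of the lists is not reported here. The members and lists were chosen with earlier results of these data known. DESeq2 1.42.0, limma-voom (limma 3.58.1), other factors, filters, replicate blocks and each library left out were tried as alternatives.

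The steps were tested on simulated data. The precision of a value rests on the few libraries more than on the 17670420 to 22395169 counts in each.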

Additional observations from a re-analysis of the deposited data

How the results depend on the processing

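Of the 9 genes, 4 were called in the fit of all libraries. RLE and upper quartile factors, limma-voom, no filter and a filter on a CPM of 1 in 2 libraries each gave 4 calls, all shared with it. DESeq2 gave 6, adding Ifngr1 and Il12rb1. With single libraries left out the count ran from 1 (without Treg replicate 2) to 6 (without reporter-null replicate 2), and was 2 when either group lost its replicate 1. The count over all genes was 1245 with all libraries. It was 341 with Treg replicate 1 left out, 405 with Treg replicate 2 left out, 467 when reporter-null replicate 1 was dropped and 2035 when reporter-null replicate 2 was. DESeq2 called 2323 genes. Leaving out a Treg library leaves 1, whose spread is assumed to be that of the other group.

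The numbers in the titles and those in the descriptions pair the libraries differently, and neither is stated to mark a shared animal. A replicate block by the title number gave 0 of the 9 genes and 24 genes in all. By title, reporter-null replicate 3 has no Treg partner. By description, reporter-null replicate 1 carries the joined numbers 1 and 4 and has no Treg partner. A library alone in its block adds nothing to the group contrast, so each block rests on fewer libraries than the main fit. A replicate block by the description number gave 4 of the 9 (3 shared, with Ifngr1 gained and Il10rb lost at 0.0644) and 1399 genes. Deviations from the group means correlated at -0.51 and -0.60 for equal title numbers, and at 0.60 and 0.48 for equal description numbers. The deviations of 2 Treg libraries from their mean are mirror images. Each correlation with Treg replicate 1 is thus that with Treg replicate 2 with the sign turned. Reporter-null replicate 1, without a partner by description, correlated at 0.51 with Treg replicate 2. The correlations therefore cannot tell which numbers pair the libraries, and neither pairing is part of the design.

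Sign changes were seen in genes that were not called. With single libraries left out, Il10ra ran from -0.64 to 0.28, Jak3 from -0.32 to 0.30, Stat3 from -0.25 to 0.023, Stat4 from -0.0077 to 0.15, Stat6 from -0.10 to 0.093, Tbx21 from -0.041 to 0.23 and Traf3ip2 from -0.11 to 0.016. In the title block Jak3 was at 0.078, Stat4 at -0.0071 and Stat6 at 0.085, and in the description block Tbx21 was at -0.023. The log2 ratio of Il10ra to Il10rb differed by -0.15 to 0.93 with single libraries left out, that of Il12rb1 to Il12rb2 by -2.03 to -1.52 and that of Ifngr1 to Ifngr2 by -0.27 to -0.05. Their causes were not tested.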
